A study of Mus musculus with 6 samples.

Results

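The 7 genes described here, *Entpd1*, *Nt5e*, *Adora2a*, *Ada*, *P2rx7*, *P2rx4* and *Art2b*, encode proteins that handle or sense extracellular nucleotides and adenosine. They were selected by gene symbol from a table of 37305 genes, and each symbol occurred once. RNA sequencing compared regulatory T (Treg) cells, which hold immune responses in check and were sorted as CD4+CD25+ cells, from spleens of C57BL/6 mice of 2 genotypes. *Junb*-deficient cells came from mice with *Junb* alleles flanked by loxP sites and Cre recombinase under *Cd4* control (labelled Cd4cre JUNBFl/Fl), and control cells from mice with the same floxed alleles and no Cre (JUNBFl/Fl). There were 3 libraries per genotype, called *Junb*-deficient 1 to 3 and control 1 to 3. *Junb* encodes a subunit of the transcription factor AP-1. *Cd4* is active in all developing T cells of the alpha-beta lineage, so that *Junb* was also deleted in T cells other than Treg cells of these mice. The labels do not give the age of the animals or say whether each library came from a separate animal, so p values measure the spread between these samples.

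Cells under stress or dying release ATP and NAD. On mouse Treg cells the surface enzyme CD39 (*Entpd1*) removes phosphates from ATP and ADP to leave AMP, and CD73 (*Nt5e*) turns AMP into adenosine. Adenosine acts through the A2A receptor (*Adora2a*), which raises cyclic AMP and restrains T cells, and adenosine deaminase (*Ada*) ends its action by making inosine. ATP itself opens the channels P2X7 (*P2rx7*) and P2X4 (*P2rx4*). In mice the surface ADP-ribosyltransferase ART2.2 (*Art2b*) uses NAD to modify P2X7, which opens the channel and can kill Treg cells.

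All 7 genes were expressed in all 6 libraries, and none of them was called changed in *Junb*-deficient Treg cells by an unpaired test. *Nt5e* had the largest difference, lower in the *Junb*-deficient library of every number, as were 22.3% of all genes tested. It passed the unadjusted thresholds once libraries of the same number were compared with each other (limma adjusted p = 0.221). In that fit 10.8% of all genes were called, and 7.2% fell. For the numbers 2 and 3 the pairing of libraries is an assumption. The study itself classed *Nt5e* as depending on BATF, another AP-1 factor, and not on JunB. It took the JunB class from its RNA sequencing described here, and the BATF class from genes identified previously. For JunB the class is therefore not separate from these values. For *Entpd1*, *Adora2a*, *Ada*, *P2rx7*, *P2rx4* and *Art2b* the *Junb*-deficient library was lower in some numbers and higher in others. Levels are FPKM (fragments per kilobase of transcript, scaled to the mapped fragments of the library), so they are per length and can be roughly compared between genes. Summed over all genes they differed between libraries. The sums were 528608, 657992 and 575628 in *Junb*-deficient 1, 2 and 3 and 496684, 811691 and 862049 in control 1, 2 and 3. A gene was called where limma on log2(FPKM + 1) gave p under 0.05 before adjustment together with a difference of over 0.5 in either direction, the thresholds used by the study. The log2 differences are *Junb*-deficient minus control on that scale. By this rule 537 of the 11781 genes tested (4.56%) were called, 197 that rose (1.67%) and 340 that fell (2.89%), and 0 of the 7 genes. No gene passed an adjusted p of 0.05, while 636 had an unadjusted p under 0.05, of which 0 were among the 7. The median log2 difference was 0.09 over the 7 genes and -0.05 over all genes tested, and the median size regardless of sign was 0.28 and 0.22.

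The read counts behind the FPKM values are unknown. Depth relative to control 1 was estimated as the most frequent ratio of control 1 FPKM to library FPKM among genes very low in both. The estimate was 0.460 to 0.801 in the *Junb*-deficient libraries and 0.354 to 0.486 in control 2 and 3. It holds only if that ratio comes from equal fragment counts and no scaling between libraries was applied, which is not known. *Junb* was at 180, 49.1 and 37.8 FPKM in *Junb*-deficient 1, 2 and 3, against 921, 298 and 256 FPKM in control 1, 2 and 3. *Junb* RNA was lower in the *Junb*-deficient library of each number, at 14.8% to 19.6% of the control of the same number. The 2 libraries numbered 1, whose sample names end without a lane code that the other 4 carry, stood apart. The defining Treg cell marker *Foxp3* was present in every library, at 153, 130 and 135 FPKM in *Junb*-deficient cells and 161, 123 and 115 FPKM in controls. The sum of 6 Treg and T cell markers was 989 to 1055 FPKM in *Junb*-deficient libraries and 1111 to 1163 FPKM in controls, without overlap. Of the 6, *Ctla4* (153, 193 and 137 against 266, 251 and 265 FPKM) and *Ikzf2* (44.3, 61.2 and 55.0 against 64.7, 61.2 and 61.8 FPKM) were lower in all 3 *Junb*-deficient libraries than in all 3 controls. For *Ikzf2* the nearest libraries were under 0.1 FPKM apart, and 0 of the 6 were higher in all 3. *Foxp3*, *Il2ra*, *Cd3e* and *Cd4* overlapped between the genotypes. The study reports *Ctla4* as lower in *Junb*-deficient Treg cells, so the sum does not measure Treg cell content alone. Of 11 myeloid markers 10 were higher in both libraries numbered 1 than in the other 4, and their sum was 30.0 to 117 FPKM in *Junb*-deficient libraries and 26.6 to 201 FPKM in controls. Of 10 B cell markers 7 were, with sums of 28.5 to 75.7 and 28.1 to 38.5 FPKM, and of 8 dendritic cell markers 5 were, with sums of 9.03 to 49.2 and 3.22 to 85.1 FPKM. *Cd209a* was at 0 in *Junb*-deficient 2, control 2 and control 3, *S100a9* in *Junb*-deficient 3 and control 2, *S100a8* and *Cd14* in *Junb*-deficient 2, and *Clec9a* in *Junb*-deficient 2 and control 3. Of 9 immediate early genes 6 were higher in both libraries numbered 1, with sums of 571 to 2187 FPKM in *Junb*-deficient libraries and 606 to 1519 FPKM in controls. *Ddx3y*, on the Y chromosome, was near 0 (0.00766 FPKM) in *Junb*-deficient 3 only, against 19.3 to 30.6 FPKM elsewhere. *Xist*, expressed from the inactive X chromosome of females, was at 17.9, 0.0239 and 54.0 FPKM in *Junb*-deficient 1, 2 and 3 and at 8.30, 0.0145 and 8.35 FPKM in control 1, 2 and 3, so that 3 libraries held both RNAs. The part of these differences in the results below was not tested. In bulk RNA, fewer cells of a type and less RNA per cell cannot be told apart.

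**Figure D1:**
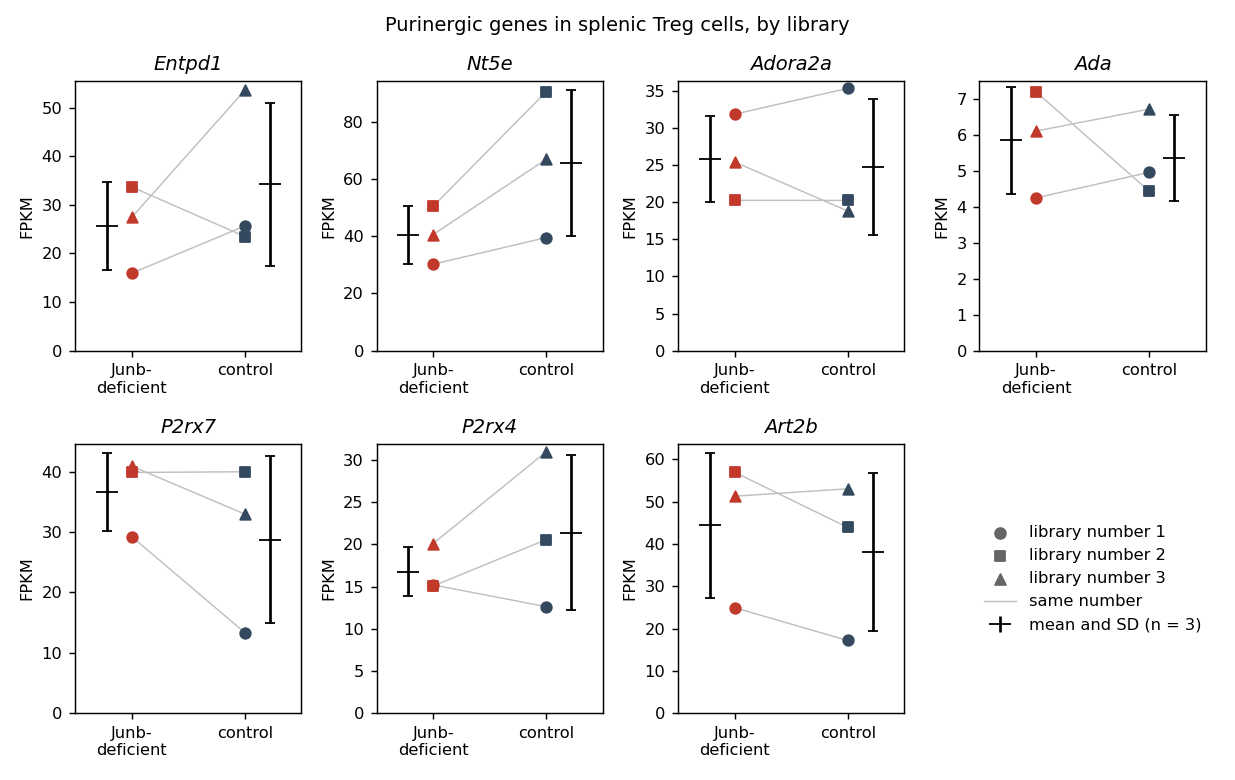
FPKM of the 7 genes (vertical axes, each from 0) in *Junb*-deficient (left) and control (right) libraries. Symbols mark the library number, grey lines join libraries of the same number, and bars give mean and SD (n = 3). The genotypes overlap for every gene, and for *Nt5e* all 3 lines run upward to the control.

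Because JunB is a subunit of AP-1, the promoters of the 7 genes were searched for the AP-1 element TGACTCA, whose reverse complement is TGAGTCA. RefSeq promoter windows on build GRCm38.p6, from 250 bases before to 50 after an annotated start, matched 6 of the 7 genes (8 windows), all but *Adora2a*. The element occurred in 2 of the 8 windows, 1 of *P2rx7* and that of *Art2b*, against 5.20% of 32851 windows of all genes. The 3 windows below are those 2 and that of *Nt5e*, the gene with the largest difference. Each is printed 5′ to 3′ on the strand of the gene, with the AP-1 element in capitals.
P2rx7, chr5:122643677-122643976, plus strand: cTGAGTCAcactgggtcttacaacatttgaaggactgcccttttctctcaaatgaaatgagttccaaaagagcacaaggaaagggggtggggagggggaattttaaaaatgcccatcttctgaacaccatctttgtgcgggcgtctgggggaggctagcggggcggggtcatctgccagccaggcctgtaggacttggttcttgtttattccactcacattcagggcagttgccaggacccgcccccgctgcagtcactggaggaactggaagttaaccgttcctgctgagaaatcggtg
Art2b, chr7:101581112-101581411, minus strand: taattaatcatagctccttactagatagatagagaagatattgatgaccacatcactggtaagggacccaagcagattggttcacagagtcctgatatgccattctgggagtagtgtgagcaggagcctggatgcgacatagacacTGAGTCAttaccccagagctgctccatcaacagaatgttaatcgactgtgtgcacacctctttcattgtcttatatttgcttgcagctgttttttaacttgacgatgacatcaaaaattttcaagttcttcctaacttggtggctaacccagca
Nt5e, chr9:88327359-88327658, plus strand: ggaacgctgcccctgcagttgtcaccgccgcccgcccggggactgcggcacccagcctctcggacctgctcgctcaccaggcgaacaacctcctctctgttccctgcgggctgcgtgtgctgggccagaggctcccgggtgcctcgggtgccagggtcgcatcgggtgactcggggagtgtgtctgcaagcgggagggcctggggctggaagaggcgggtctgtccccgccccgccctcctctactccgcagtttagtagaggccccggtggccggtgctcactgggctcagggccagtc
The element begins 249 bases before the annotated start of *P2rx7* and 104 bases before that of *Art2b*. A GAAA directly before the element, or its complement TTTC ending 4 bases before it, which makes a composite AP-1 and IRF element (AICE), was found in 0 of the 8 windows and in 0.177% of all windows. Only the 2 windows with the AP-1 element could hold an AICE. In that of *P2rx7* the element begins at base 2 of the window, so the bases before it could not be searched. These letters are a description of the windows, and say nothing of binding.

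Among the 7 genes, *Nt5e* RNA was the most abundant and *Ada* RNA the least. Over the 6 libraries the mean levels were 53.0 ± 22.2 FPKM for *Nt5e*, 41.2 ± 16.3 for *Art2b*, 32.7 ± 10.6 for *P2rx7*, 29.9 ± 12.9 for *Entpd1*, 25.3 ± 6.88 for *Adora2a*, 19.1 ± 6.59 for *P2rx4* and 5.61 ± 1.24 for *Ada* (SD, n = 6). The mean of *Nt5e* exceeded that of 85.4% of the genes tested, and the mean of *Ada* that of 27.5%. Neighbours in this order were not separated beyond their spread, apart from *P2rx4* and *Ada*, where *P2rx4* was higher in all 6 libraries with no overlap. *Nt5e* exceeded *Art2b* in 4 of 6 libraries, 1 of 3 *Junb*-deficient and 3 of 3 control. The highest library was between 1.69 times (*Ada*) and 3.36 times (*Entpd1*) the lowest.

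*Nt5e* (ENSMUSG00000032420.6, mm9 chromosome 9, 88222447 to 88266927, plus strand) encodes CD73, the last enzyme on the surface path to adenosine. It was at 30.2, 50.5 and 40.6 FPKM in *Junb*-deficient 1, 2 and 3, against 39.6, 90.5 and 66.9 FPKM in control 1, 2 and 3. The groups overlapped only through control 1, which lay just below *Junb*-deficient 3 and below *Junb*-deficient 2, while control 2 and 3 were above all 3 *Junb*-deficient libraries. Means were 40.4 ± 10.1 FPKM in *Junb*-deficient and 65.7 ± 25.5 FPKM in control libraries (SD, n = 3). The log2 difference was -0.64 (SE 0.33, 95% interval -1.41 to 0.14, limma adjusted p = 0.834). An exact 2-sided permutation test of 3 against 3 libraries, which cannot go below 0.1, gave p = 0.3, where limma gave 0.0927 before adjustment. For the other 6 genes the exact test gave 0.6 or 0.8. Within the numbers 1, 2 and 3 the *Junb*-deficient library held 76.4%, 55.7% and 60.6% of the level of its control. Of all genes tested, 22.3% were lower in the *Junb*-deficient library of all 3 numbers and 15.7% higher, and of the 7 genes 1 and 0 were.

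With the library number as a replicate block, *Nt5e* passed the thresholds as lower (limma adjusted p = 0.221), at the same log2 difference and an SE of 0.17. It was the only one of the 7 genes called there, where 10.8% of all genes were called, 3.58% that rose and 7.2% that fell. The call was also made with a term for the presence of the lane code in place of the block (limma adjusted p = 0.173), with 10.7% of all genes called, 3.52% higher and 7.13% lower. The call rested on how the libraries numbered 1 were treated. Without control 1 *Nt5e* passed with a log2 difference of -0.96 (limma adjusted p = 0.142), where 19.8% of genes were called, 6.73% that rose and 13.1% that fell. Without both libraries numbered 1, a choice made after seeing the data, it passed with -0.77 (limma adjusted p = 0.0712), where 19.9% were called, 6.74% that rose and 13.2% that fell. Without control 2 the unpaired difference was -0.37.

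*Entpd1* (ENSMUSG00000048120.10, chromosome 19, 40686856 to 40816092, plus strand) encodes CD39, which acts before CD73. It was at 15.9, 33.7 and 27.4 FPKM in *Junb*-deficient 1, 2 and 3, against 25.6, 23.5 and 53.6 FPKM in control 1, 2 and 3. Control 3 was the highest and *Junb*-deficient 1 the lowest, and the other 4 libraries of both genotypes lay between 23.5 and 33.7 FPKM. Means were 25.7 ± 8.99 FPKM in *Junb*-deficient and 34.2 ± 16.8 FPKM in control libraries (SD, n = 3), a log2 difference of -0.36 (SE 0.38, 95% interval -1.26 to 0.53, limma adjusted p = 0.867). Within numbers, *Entpd1* was lower in *Junb*-deficient 1 and 3 and higher in *Junb*-deficient 2, with log2 differences of -0.65, 0.50 and -0.94 for the numbers 1, 2 and 3. Without control 3 the difference was 0.00066, so that its direction rested on this library. B cells and myeloid cells also express CD39. The summed myeloid markers were at 117, 30.0 and 30.5 FPKM in *Junb*-deficient 1, 2 and 3 and 201, 26.6 and 28.4 FPKM in control 1, 2 and 3, and the summed B cell markers at 75.7, 28.5 and 33.7 FPKM and 38.5, 28.9 and 28.1 FPKM. Their part in the level of *Entpd1* was not tested. The gene overlaps 2 pseudogenes on its strand, *Gm8783* at a mean of 0.0365 FPKM and *Gm16027*, listed at 0.

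The balance of both enzymes was examined as the ratio of *Nt5e* to *Entpd1* FPKM, without a test. It was 1.90, 1.50 and 1.48 in *Junb*-deficient 1, 2 and 3, against 1.54, 3.86 and 1.25 in control 1, 2 and 3. *Nt5e* RNA exceeded *Entpd1* RNA in every library. Control 2 stood above all others, and the *Junb*-deficient library was lower only in number 2. The mean ratio was 1.63 ± 0.235 in *Junb*-deficient and 2.22 ± 1.43 in control libraries (SD, n = 3).

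**Figure D2:**
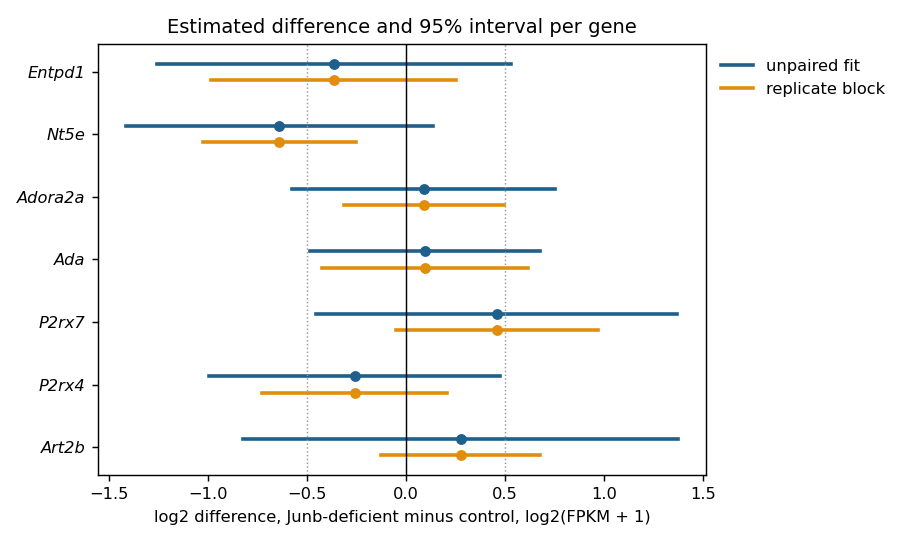
Log2 difference, *Junb*-deficient minus control on log2(FPKM + 1), for each gene (points) with its 95% interval (lines) in the unpaired limma fit and with the replicate block. Dotted lines mark 0.5 in either direction. Only the blocked interval of *Nt5e* leaves out 0.

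*Adora2a* (ENSMUSG00000020178.5, chromosome 10, 74779688 to 74797533, plus strand) encodes the A2A receptor. It was at 31.8, 20.3 and 25.4 FPKM in *Junb*-deficient 1, 2 and 3, against 35.3, 20.2 and 18.8 FPKM in control 1, 2 and 3. The libraries numbered 1 were the highest in both genotypes, and both libraries numbered 2 were at nearly the same level. Means were 25.8 ± 5.81 and 24.8 ± 9.15 FPKM in *Junb*-deficient and control libraries (SD, n = 3), a log2 difference of 0.09 (SE 0.28, 95% interval -0.57 to 0.75, limma adjusted p = 0.955). The other adenosine receptors, *Adora1*, *Adora2b* and *Adora3*, were below a mean of 1 FPKM. *Adora1* was listed at 0 in all 6 libraries.

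*Ada* (ENSMUSG00000017697.3, chromosome 2, 163552320 to 163575975, minus strand) encodes the enzyme that removes adenosine. It was at 4.25, 7.20 and 6.11 FPKM in *Junb*-deficient 1, 2 and 3, against 4.96, 4.44 and 6.72 FPKM in control 1, 2 and 3. The genotypes overlapped throughout, with *Junb*-deficient libraries at both ends of the range. The log2 difference was 0.10 (SE 0.25, 95% interval -0.48 to 0.68, limma adjusted p = 0.949). The interval reaches 0.716-fold to 1.60-fold of the control level on the FPKM + 1 scale, the narrowest of the 7 genes.

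*P2rx7* (ENSMUSG00000029468.10, mm9 chromosome 5, 123093920 to 123141441, plus strand) and *P2rx4* (ENSMUSG00000029470.8, 123157593 to 123179747, plus strand) encode ATP-gated cation channels and lie 16151 bases apart. *P2rx7* was at 29.2, 39.9 and 40.9 FPKM in *Junb*-deficient 1, 2 and 3, against 13.4, 40.0 and 33.0 FPKM in control 1, 2 and 3. Control 1 was far below the other 5 libraries, and the libraries numbered 2 were alike. Means were 36.7 ± 6.45 FPKM in *Junb*-deficient and 28.8 ± 13.8 FPKM in control libraries (SD, n = 3), a log2 difference of 0.46 (SE 0.39, 95% interval -0.45 to 1.37, limma adjusted p = 0.849). Without control 1 the difference was -0.0012.

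*P2rx4* was at 15.2, 15.1 and 20.1 FPKM in *Junb*-deficient 1, 2 and 3, against 12.6, 20.6 and 30.9 FPKM in control 1, 2 and 3. Control 1 was the lowest and control 3 the highest, with the 3 *Junb*-deficient libraries between them. The log2 difference was -0.26 (SE 0.31, 95% interval -0.99 to 0.48, limma adjusted p = 0.879), which was 0.04 without control 3. Without control 1 it was -0.57 and passed the unadjusted thresholds (limma adjusted p = 0.212), where 13.1% of all genes fell and 6.73% rose.

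The ratio of *P2rx7* to *P2rx4* FPKM was chosen after the values were seen and is given without a test. It was 1.93, 2.65 and 2.04 in *Junb*-deficient 1, 2 and 3, against 1.06, 1.94 and 1.07 in control 1, 2 and 3. The *Junb*-deficient library had the higher ratio in each of the 3 numbers, although control 2 reached the level of *Junb*-deficient 1. The mean was 2.2 ± 0.388 in *Junb*-deficient and 1.36 ± 0.510 in control libraries (SD, n = 3). In number 1 *P2rx7* was at 2.19 and *P2rx4* at 1.20 times the control, and in number 2 *P2rx7* was at 0.997 and *P2rx4* at 0.733 times the control. In number 3 *P2rx7* was at 1.24 and *P2rx4* at 0.649 times the control.

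**Figure D3:**
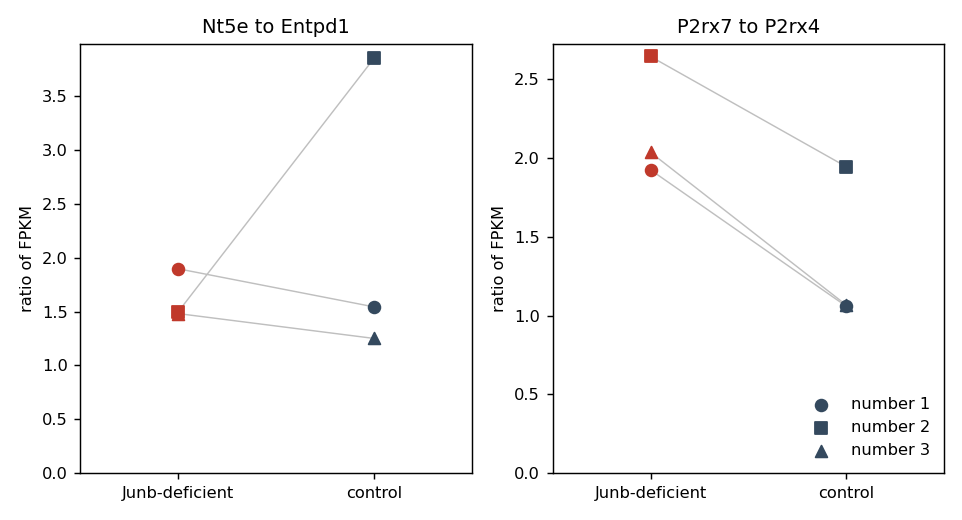
Ratio of *Nt5e* to *Entpd1* FPKM (left panel) and of *P2rx7* to *P2rx4* FPKM (right panel) in *Junb*-deficient and control libraries, with lines joining libraries of the same number. The *Nt5e* to *Entpd1* ratio is set apart only in control 2 (3.86), and the *P2rx7* to *P2rx4* ratio is higher in the *Junb*-deficient library of all 3 numbers.

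*Art2b* (ENSMUSG00000030651.4, mm9 chromosome 7, 108727374 to 108729675, minus strand) encodes ART2.2. It was at 25.0, 56.9 and 51.3 FPKM in *Junb*-deficient 1, 2 and 3, against 17.2, 43.9 and 53.0 FPKM in control 1, 2 and 3. The libraries numbered 1 were the lowest in both genotypes, and the other 4 were between 43.9 and 56.9 FPKM. The log2 difference was 0.28 (SE 0.47, 95% interval -0.82 to 1.38, limma adjusted p = 0.917), and without control 1 it was -0.20. With a correction for exon length it was 0.53 and did not pass. The neighbouring copy *Art2a-ps*, 17994 bases away, was at 6.27, 10.2 and 7.13 FPKM in *Junb*-deficient and 5.53, 7.25 and 11.0 FPKM in control libraries. Exons of both copies were identical at 87.4% of 864 aligned bases, and 7.79% of the words of 75 bases in *Art2b* also occurred in *Art2a-ps*. These words are shorter than the paired reads that the study describes, and the share at the length of those reads was not computed. The sources used here do not say how reads with several matches were counted, so the division between the copies is uncertain. Summed as 1 gene, also a choice made after seeing the data, they had a log2 difference of 0.23.

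**Figure D4:**
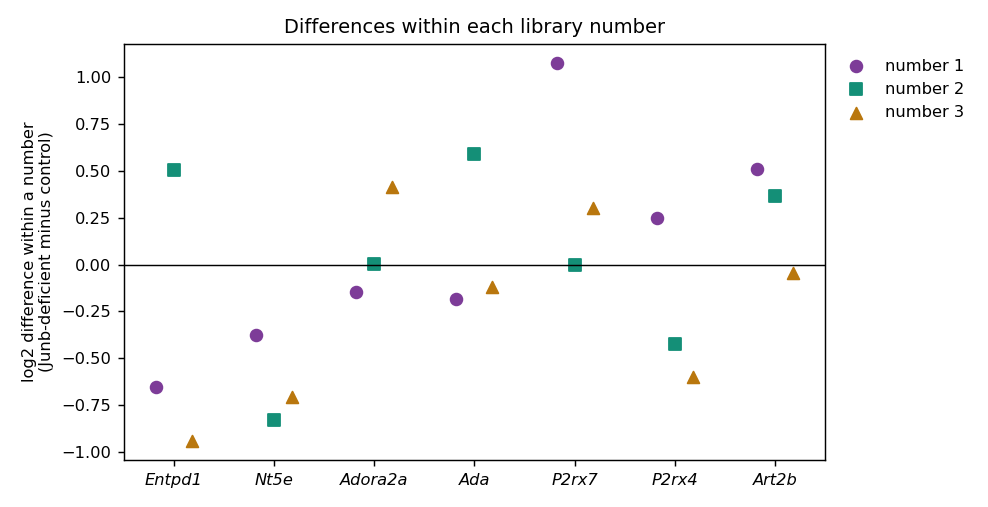
Log2 difference within each library number (*Junb*-deficient minus control, log2(FPKM + 1), vertical axis) for the 7 genes (horizontal axis). *Nt5e* lies below 0 in all 3 numbers (-0.38, -0.83 and -0.71), and each other gene has values on both sides of 0.

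For some of the 7 genes both libraries numbered 1 lay on the same side of the other 4 libraries. For *Entpd1*, *P2rx4* and *Ada* they overlapped with the others. *Nt5e*, *P2rx7* and *Art2b* were lower in both libraries numbered 1 than in all other 4 libraries, and *Adora2a* was higher in both. Of all genes tested, 23.3% were lower in both libraries numbered 1 and 18.9% were higher, so such a pattern was common. The mean of the libraries numbered 1 was 0.411 times that of the others for *Art2b*, 0.554 times for *P2rx7* and 0.562 times for *Nt5e*, and 1.59 times for *Adora2a*. These were also the libraries with more myeloid, B cell and immediate early RNA.

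The wider purinergic system was then described with 6 lists of 92 symbols in all, the 7 genes included, of which 91 were in the table and 60 reached the mean of 1 FPKM required for the test. Of these 60 genes, 1 rose (1.67%) and 0 fell. The other 59 did not pass, and the 60 had a median log2 difference of 0.01. With the replicate block 2 rose and 4 fell, where 3.58% and 7.2% of all genes did. Without both libraries numbered 1, 3 rose and 6 fell of 58 tested, where 6.74% and 13.2% of all genes did. These counts were near or below the shares over all genes. None passed an adjusted p of 0.05 in limma unpaired. The gene that rose was *Adal*, which encodes a relative of adenosine deaminase. It was at 5.15, 8.70 and 6.07 FPKM in *Junb*-deficient 1, 2 and 3, against 3.80, 4.75 and 3.77 FPKM in control 1, 2 and 3. All 3 *Junb*-deficient libraries lay above all 3 controls, as for 4.58% of all genes, while 6.36% of all genes lay below. Of the 60 genes 5 lay above all controls (8.33%) and 2 below (3.33%). The log2 difference of *Adal* was 0.56 (SE 0.23, limma adjusted p = 0.834).

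Of the 15 ectonucleotidases, *Entpd1* and *Nt5e* included, 10 were tested and none passed. The most abundant others were *Cant1* with 28.7 ± 5.83 FPKM in *Junb*-deficient and 27.2 ± 1.76 FPKM in control libraries, *Entpd4* with 15.0 ± 3.97 and 13.7 ± 3.40, and *Entpd6* with 14.2 ± 1.74 and 12.7 ± 3.03 (SD, n = 3). *Entpd4* and *Entpd6* are relatives of CD39 that act inside the cell or are secreted. Of 18 adenosine and nucleotide receptors only 4 were tested, *Adora2a*, *P2rx7*, *P2rx4* and *P2ry14*, a receptor for UDP-sugars. *P2ry14* was at 3.51, 1.61 and 1.30 FPKM in *Junb*-deficient and 5.15, 1.27 and 1.92 FPKM in control libraries, highest in the libraries numbered 1 of both genotypes. Every other P2X and P2Y gene listed had a mean under 1 FPKM.

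For uptake and intracellular handling of adenosine and purines, 18 of 23 genes were tested, of which *Adal* rose and 0 fell. *Nt5c*, a cytosolic nucleotidase, was at 115 ± 39.8 FPKM in *Junb*-deficient and 181 ± 89.2 FPKM in control libraries, and the salvage enzymes *Hprt* and *Aprt* at 87.1 ± 24.3 and 66.8 ± 3.94 FPKM in *Junb*-deficient and 135 ± 45.7 and 85.9 ± 11.0 FPKM in control libraries (SD, n = 3). With the replicate block *Nt5c*, *Hprt* and *Nt5c3* fell (limma adjusted p = 0.271, 0.252 and 0.340), where 7.2% of all genes fell. *Aprt* did not pass in either fit, although its 3 *Junb*-deficient libraries lay below all 3 controls. *Ampd2* and *Ampd3*, which encode AMP deaminases, did not pass, with log2 differences of 0.24 and 0.26 and every *Junb*-deficient library higher than every control. *Nt5c3*, another nucleotidase, is named here after its values were seen. The main nucleoside transporter by level, *Slc29a1*, also named after its values were seen, was at 42.9 ± 3.65 FPKM in *Junb*-deficient and 44.7 ± 3.13 FPKM in control libraries.

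Of the ADP-ribosyltransferases and NAD-consuming ectoenzymes, 5 of the 8 in the table were tested and none passed. *Cd38*, which consumes the NAD that ART2.2 uses, was at 6.89, 6.30 and 11.1 FPKM in *Junb*-deficient and 9.97, 10.5 and 10.6 FPKM in control libraries, so that *Junb*-deficient 3 was the highest of all. *Art3* was at 1.14, 1.37 and 1.01 FPKM in *Junb*-deficient 1, 2 and 3 and 2.30, 1.90 and 2.59 FPKM in control 1, 2 and 3, without overlap, and did not pass (log2 difference -0.58, limma adjusted p = 0.834). Among 7 channels and transporters of ATP release, 4 were tested and none passed. The channel *Panx1* was at 38.1 ± 6.95 FPKM in *Junb*-deficient and 43.9 ± 9.46 FPKM in control libraries, the vesicular ATP transporter *Slc17a9* at 23.5 ± 3.18 and 23.0 ± 5.14, and *Lrrc8a* of the volume-regulated anion channel at 8.93 ± 1.23 and 8.91 ± 1.81 (SD, n = 3).

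Signalling from the A2A receptor through cyclic AMP was represented by 20 genes, of which 19 were tested and none passed, with a median log2 difference of 0.07. The adenylyl cyclase *Adcy6* was at 7.78, 5.71 and 6.15 FPKM in *Junb*-deficient and 4.84, 4.26 and 4.17 FPKM in control libraries, without overlap, and missed only the size threshold (log2 difference 0.47, limma adjusted p = 0.834). The transcriptional coactivator *Crtc2* was also higher without overlap and did not pass (0.33). *Ampd2*, *Ampd3*, *Adcy6* and *Crtc2* are named after their values were seen. The stimulatory G protein subunit *Gnas* was at 319 ± 29.0 FPKM in *Junb*-deficient and 358 ± 28.7 FPKM in control libraries, the regulatory subunit of protein kinase A *Prkar1a* at 182 ± 37.1 and 207 ± 29.5, and its catalytic subunit *Prkacb* at 50.1 ± 9.45 and 51.1 ± 2.85 (SD, n = 3). With the replicate block the phosphodiesterase *Pde7a*, which breaks down cyclic AMP and is named here after its values were seen, rose (limma adjusted p = 0.215). *Pde7a* was at 41.0, 21.6 and 23.7 FPKM in *Junb*-deficient and 22.1, 17.2 and 10.9 FPKM in control libraries.

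Last, the genes whose pattern over the 6 libraries was most like that of *Nt5e* and *Entpd1* were sought among 7757 other genes with a mean of at least 5 FPKM, by the root-mean-square difference of log2(FPKM + 1) after centring each gene on its mean. Closest to *Nt5e* were *Mrpl42* of the mitochondrial ribosome (0.028), the valine catabolism enzyme *Hibch* (0.059) and *Srp19* of the signal recognition particle (0.090), against a spread of *Nt5e* about its own mean of 0.51. *Mrpl42* was at 29.4, 49.5 and 39.6 FPKM in *Junb*-deficient and 38.5, 88.0 and 62.0 FPKM in control libraries, nearly the same values as *Nt5e*. Closest to *Entpd1* were the interferon-induced gene *Ifi27l2a* (0.12), *Hint2* (0.15) and *Chchd4* (0.17), against a spread of 0.51. *Ifi27l2a* was at 690, 1435 and 1097 FPKM in *Junb*-deficient and 1005, 1171 and 2409 FPKM in control libraries, also highest in control 3. How close the nearest of 7757 genes usually lies over 6 libraries was not examined, so a shared regulation cannot be read from these matches.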

How the data were processed

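Polyadenylated RNA of FACS-sorted Treg cells was sequenced from strand-specific libraries. The deposited values are FPKM. The submitters' processing notes name TopHat2 2.2.1, Cufflinks and the build mm9. Options of counting, treatment of multiple matches and scaling between libraries are not given in the sources used here. Columns were matched to samples by name, those numbered 1 by elimination. All 37305 identifiers were found in GENCODE vM1, which gave positions and exon lengths. The study states only a minimum read depth per sample, and read counts per library are not available, so no counting intervals are given.

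Genes with a mean of at least 1 FPKM (11781) entered 2-sided limma tests of log2(FPKM + 1) that let the variance follow the mean level (limma 3.58.1, R 4.3.3), with Benjamini-Hochberg adjustment over all genes tested, and the code was tested on simulated data. Because of the pseudocount, changes of low genes are understated. No 2 libraries were identical. Across genes, a library's deviations from its genotype's mean correlated by 0.57, 0.42 and 0.24 within the numbers 1, 2 and 3. Across numbers, *Junb*-deficient 2 correlated by 0.41 with control 3 and *Junb*-deficient 3 by 0.13 with control 2. The correlations therefore cannot tell how the libraries numbered 2 and 3 pair. Since each correlation within a number was over 0.1, the numbers given by the column names were taken to pair the libraries. For the numbers 2 and 3 this is an assumption. The fit with a replicate block is given where it changes a call. Tried besides were no filter, a filter at a mean of 5 FPKM, a pseudocount of 0.1, median-ratio or quantile scaling, no trend, a block for the library number, a term for whether the sample name carries a lane code (the labels do not say what it marks), and leaving out each library. Leaving out both libraries numbered 1, a correction for exon length, and the sum of *Art2b* and *Art2a-ps* were added after seeing the data.

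The genes and lists were chosen with earlier results of these data known. Named are the 7 genes, *Junb*, from each list the genes called and the 3 most abundant others, and the 3 genes nearest to *Nt5e* and to *Entpd1*. Outside this rule, *Slc29a1*, *Nt5c3*, *Pde7a*, *Ampd2*, *Ampd3*, *Adcy6* and *Crtc2*, the marker and sex-linked genes of the library checks, the other adenosine receptors and the pseudogenes overlapping *Entpd1* were named after values were seen. Promoter sequences are from RefSeq (GRCm38.p6). Figures were drawn with Python 3.11.15 and matplotlib 3.10.9.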

Additional observations from a re-analysis of the deposited data

How the results depend on the processing

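Over 113 alternatives for the 7 genes, 99 kept direction and side of the thresholds, 5 passed them and 9 turned direction. *Nt5e* passed with the replicate block and with a term for the lane code (both -0.64) and without both libraries numbered 1 (-0.77, added after seeing the data). Leaving out 1 library in turn, its difference ran from -0.96 to -0.37, past the thresholds only without control 1. Directions turned for *Adora2a* without control 3 (-0.072), control 2 or *Junb*-deficient 1, for *Ada* without *Junb*-deficient 2 (-0.045) or control 2 (-0.0095), for *P2rx4* (0.041) and *Entpd1* without control 3, and for *P2rx7* and *Art2b* without control 1. Over the same omissions *Entpd1* ran from -0.58 to 0.00066, *Adora2a* from -0.07 to 0.36, *P2rx7* from -0.0012 to 0.76, *P2rx4* from -0.57 to 0.04, *Ada* from -0.04 to 0.28 and *Art2b* from -0.20 to 0.64. The smallest adjusted p of any of the 7 genes under any alternative was 0.0712 (*Nt5e* without both libraries numbered 1), and the largest rounds to 1.

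Over all genes, omitting each library in turn left between 95 and 788 genes higher and between 204 and 1532 lower, the most without control 1 and the fewest without control 3. Genes that rose numbered 131 at a mean of at least 5 FPKM. With the replicate block 422 genes rose and 848 fell, with the lane code term 415 and 840, and without both libraries numbered 1, 780 and 1528. Of the purinergic lists, 0 to 3 genes rose and 0 to 7 fell when 1 library was left out. The most, 3 and 7, were without control 1, where 6.73% of all genes rose and 13.1% fell. Genes of the lists that rose numbered 2 with a pseudocount of 0.1, median-ratio scaling or quantile scaling, where 209, 247 and 257 of all genes rose. They numbered 2 with the replicate block (3.58% of all genes) or the lane code term (3.52%), and 3 without both libraries numbered 1 (6.74%). They numbered 0 without a filter, at a mean of at least 5 FPKM or with the exon length correction, where 188, 131 and 203 of all genes rose. No share of all genes was computed for settings given with counts only, and the filters change how many genes are tested. Genes of the lists that fell numbered 1 without a filter or without trend, where 314 and 340 of all genes fell. They numbered 4 with the block (7.2% of all genes), 5 with the lane code term (7.13%) and 6 without both libraries numbered 1 (13.2%). The block changed no other call among the 7 genes.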
